A study of Homo sapiens with 12 samples.

Results

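The 10 genes described here are feedback and output genes of the ERK pathway, chosen by gene name from the 60645 gene names counted. They are the dual-specificity phosphatase genes DUSP4, DUSP5 and DUSP6, the Sprouty-family genes SPRY2, SPRY4 and SPRED1, the PEA3-type ETS factor genes ETV1, ETV4 and ETV5, and PHLDA1. All 10 were found in every one of the 12 libraries' tables and all passed the filter on low counts. The list was drawn up with earlier results of these libraries known, among them the rise of PHLDA1 with EWS-FLI1, and which other values guided it is not recorded. The effects of EWS-FLI1 on the members are therefore given as values, with counts of calls from which nothing is read. The ARID1A states, and interactions of state with vector, were tested gene by gene. Values of the states may also have guided the list, so counts of members called there are a description of these 10 genes.

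Cells were HEK-293T, a human embryonic kidney line, with ARID1A knocked out (a line the submitters name 12KO), and all groups share that knockout. Knockout cells received an empty vector (no ARID1A), wild-type ARID1A (WT) or ARID1A lacking IDR1b (ΔIDR1b), a disordered segment of this SWI/SNF subunit, and on top either a second empty vector or EWS-FLI1, the Ewing sarcoma fusion. EWS-FLI1 was transfected as 2 µg of plasmid, with harvest after 48 h, and overexpression from plasmids limits every group as a model. Each of the 6 groups held 2 polyA RNA libraries of 11702251 to 14445379 counts, and the stated question was what IDR1b does in gene regulation by EWS-FLI1. The labels number repeats without saying that they were separate cultures, so p-values measure the spread between these libraries, which may be technical.

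Receptor tyrosine kinases signal through RAS, RAF and MEK to the kinase ERK, which turns on genes that in turn limit it. DUSP proteins remove the activating phosphates from ERK and related kinases, and Sprouty and SPRED proteins act between receptor and RAF. PEA3 factors are ETS proteins that carry the transcriptional output, and their genes are among those held down by the repressor CIC until ERK signalling relieves it. ETS proteins, the FLI1 part of the fusion included, bind DNA around a GGAA core, and ETV1 and ETV4 occur in rare Ewing sarcomas as the partner of EWSR1 in place of FLI1.

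The labels were checked on the introduced genes. ARID1A stood at 147 to 165 CPM (counts scaled to equal library totals with TMM factors of edgeR) in the 4 libraries of no ARID1A, at 1843 to 2291 CPM in WT and at 2608 to 2878 CPM in ΔIDR1b. Transcripts of the gene thus remained counted in the group called no ARID1A, and gene-level counts show neither the loss of the protein nor the ΔIDR1b deletion. FLI1 had at most 2 counts in any empty-vector library and reached 1830 and 1688 CPM in no ARID1A, 3675 and 3462 CPM in WT and 1888 and 1906 CPM in ΔIDR1b with EWS-FLI1. Of 7 genes expected in HEK-293 cells, 6 were above 1 CPM in every library and NEFM was at 0 in 10 of 12. Their summed level ran from 885 to 1236 CPM, against 12.7 to 17.2 CPM for 9 markers of blood, liver, muscle and melanocytes, among which PMEL was above 1 CPM throughout (7.03 to 11.4 CPM), TYR was at 0 in all 12 libraries and PTPRC in 10. In these bulk samples fewer expressing cells and less RNA per cell cannot be told apart.

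The 10 genes differed widely in level. Per kilobase of exon, median levels over the 12 libraries were highest for DUSP5 (7.58 CPM per kb) and SPRY2 (7.01), intermediate for ETV4 (3.11), DUSP4 (1.43), SPRED1 (1.31), ETV5 (0.91) and PHLDA1 (0.907), and lowest for SPRY4 (0.411), DUSP6 (0.221) and ETV1 (0.188). SPRY2 moved least, from 18.3 to 27.8 CPM, and DUSP6 most, from 0.0743 to 3.68 CPM. In no ARID1A with the empty vector DUSP6, SPRY4 and ETV1 lay under the filter's level of 0.734 CPM, so they were tested because of other groups. SPRY4 and ETV1 reached it in both libraries in the 4 groups with ARID1A, and DUSP6 in the 2 groups with ARID1A and EWS-FLI1. Against no ARID1A these 3 genes could hardly be lower, and counts that include them are no support for a direction. A total of 3 counts, taken as the limit for a gene with 0 counts, came to 0.208 to 0.256 CPM in a single library, and DUSP6 lay under that limit in both libraries of that group.

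**Figure D1:**
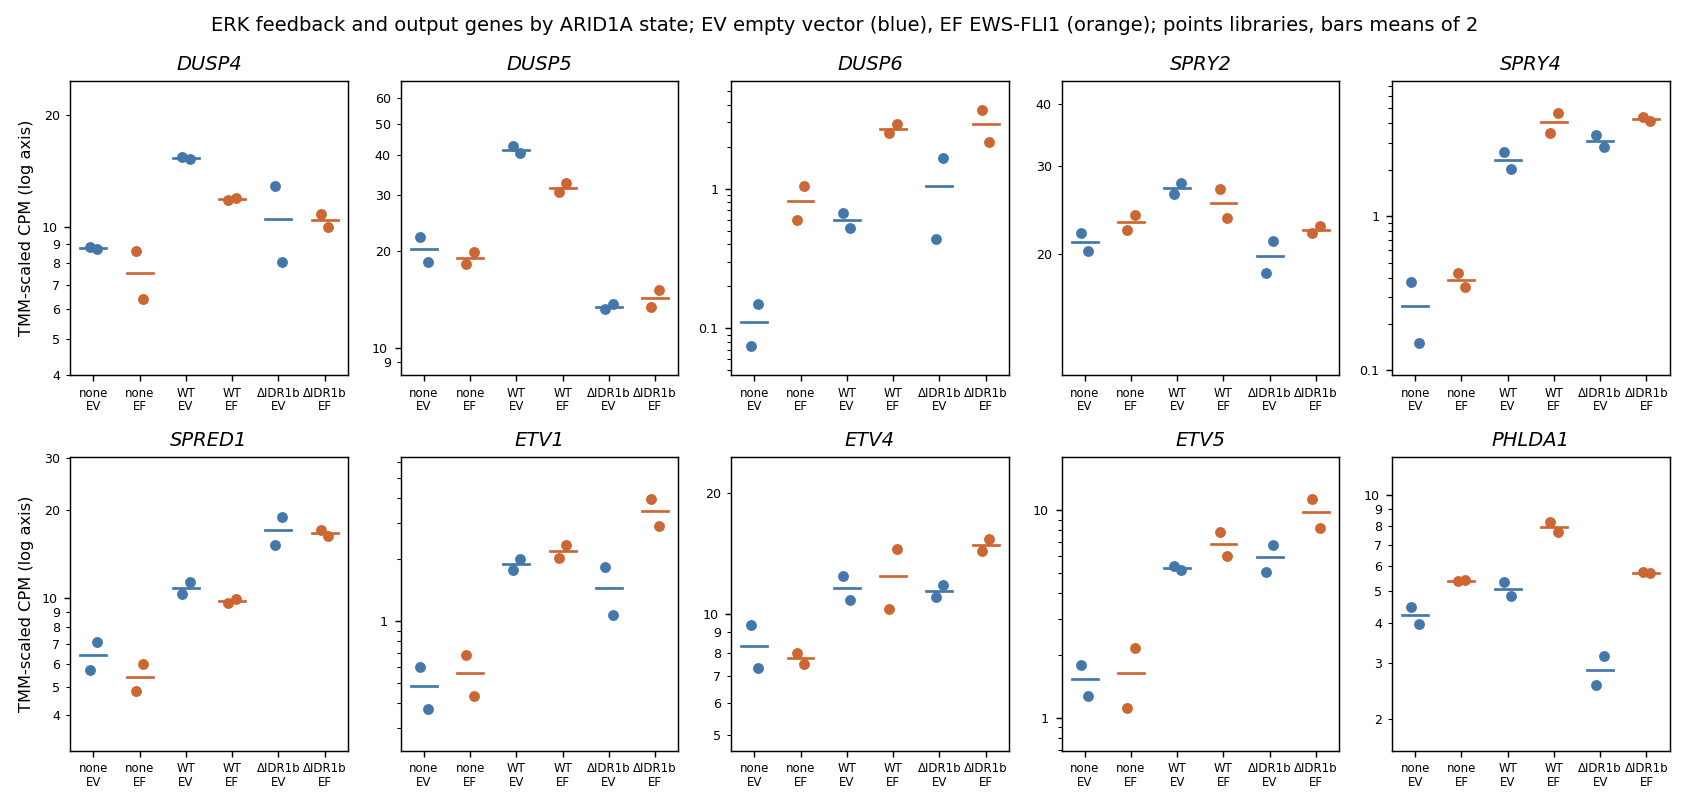
Level of each of the 10 genes in TMM-scaled CPM (log axis) in the 6 groups, with no ARID1A (none), WT or ΔIDR1b ARID1A on the horizontal axis and EV for empty vector (blue) or EF for EWS-FLI1 (orange). Points are the 2 libraries of a group and bars their mean. SPRY4, ETV1 and ETV5 are lowest in the 4 libraries without ARID1A, and DUSP5 is highest in WT and lowest in ΔIDR1b.

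The first question was how putting back either form of ARID1A moved the members. Genes were called at an adjusted p under 0.05 (edgeR quasi-likelihood test, Benjamini-Hochberg over all 20377 genes tested, as for every adjusted p below). With the empty vector, WT was higher than no ARID1A in 6 members (DUSP4, DUSP5, SPRY4, SPRED1, ETV1 and ETV5) and lower in 0, where 11.7% of all genes were called (6.5% higher and 5.19% lower). With EWS-FLI1 it was higher in 8, those 6 with DUSP6 and ETV4, and lower in 0, where 18.1% of all genes were called (9.72% higher and 8.36% lower). The 6 genes are all of the first list and 6 of 8 of the second. These 2 comparisons share no library but come from the same fit. How far the calls of all genes overlap was not counted, so nothing is read from this overlap. All 10 log2 fold changes were above 0 in both comparisons, but those of DUSP6, SPRY4 and ETV1 could hardly be below it. The share of all genes above 0 was not counted. DUSP6, SPRY4 and ETV1 entered the test through groups with ARID1A, so counts with them are no support for a direction. The other 7 members reached the filter's level in every group. Of these, 4 were higher with the empty vector (DUSP4, DUSP5, SPRED1 and ETV5) and 5 with EWS-FLI1 (with ETV4). The median log2 fold change of these 7 was 0.76 and 0.67, against medians of -0.01 and -0.02 over all genes tested.

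ΔIDR1b was compared with the same no-ARID1A libraries, so the following counts are not independent of those for WT. With the empty vector it was higher in 5 members (DUSP6, SPRY4, SPRED1, ETV1 and ETV5) and lower in 1, DUSP5, where 33.3% of all genes were called (16.4% higher and 16.8% lower). With EWS-FLI1 it was higher in 6, the same 5 with ETV4, and lower in DUSP5, where 35.9% were called (18.1% higher and 17.9% lower). The 6 genes called with the empty vector were 6 of 6 and 6 of 7 of the 2 lists, an overlap likewise given without that of all genes. Here too DUSP6, SPRY4 and ETV1 were tested because of groups with ARID1A, and counts with them are no support for a direction. Over the 7 members at the filter's level in every group, 2 were higher with the empty vector (SPRED1 and ETV5) and 3 with EWS-FLI1 (with ETV4). DUSP5 was lower with both. The median log2 fold change of these 7 was 0.25 and 0.47, against 0.00 and 0.02 over all genes.

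Between the 2 forms of ARID1A, ΔIDR1b was higher than WT with the empty vector in SPRED1 and lower in 3 members (DUSP5, SPRY2 and PHLDA1), where 24.5% of all genes were called (11.1% higher and 13.4% lower). With EWS-FLI1 SPRED1 was higher and DUSP5 lower, where 18.6% were called (8.48% higher and 10.1% lower). The 2 genes called in both comparisons were 2 of 4 and 2 of 2 of the lists. The comparisons share no library but come from the same fit, and the overlap of all genes called was not counted. ARID1A transcripts were 1.36 times as abundant in ΔIDR1b as in WT with the empty vector and 1.27 times with EWS-FLI1, and the part of that difference in these values was not tested. Upper-quartile scaling moved the split over all genes to 898 higher and 1381 lower, from 1324 and 1057, where WT was set against no ARID1A with the empty vector, and to 1505 and 2062 with EWS-FLI1, from 1981 and 1703. Where ΔIDR1b was set against WT with the empty vector it moved the split to 2791 and 2184, from 2267 and 2728, and with EWS-FLI1 to 1985 and 1733, from 1727 and 2058. No called member changed direction under any scaling run.

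**Figure D2:**
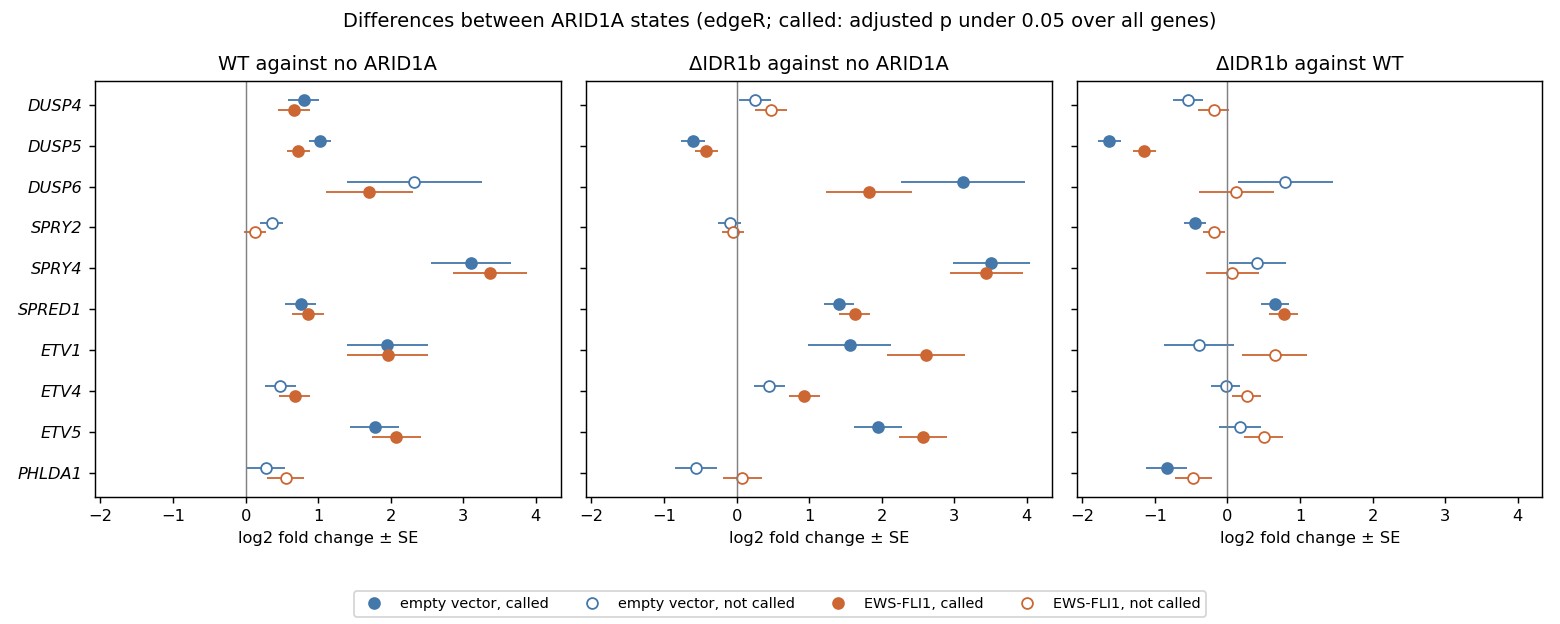
Log2 fold change ± SE of each gene between ARID1A states, with the empty vector (blue) and with EWS-FLI1 (orange). Filled points were called over all genes and open points were not. SPRY4 has the largest differences from no ARID1A, and DUSP5 lies on opposite sides of 0 in the left and middle panels.

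Among the phosphatases, DUSP5, a nuclear phosphatase selective for ERK, showed opposite differences with the 2 forms of ARID1A. It is on chromosome 10 (110497907 to 110511533, plus strand, GRCh38 as are all positions below). Its level was 22.2 and 18.5 CPM in no ARID1A, 42.5 and 40.6 CPM in WT and 13.2 and 13.7 CPM in ΔIDR1b with the empty vector. With EWS-FLI1 the values were 18.2 and 19.9, 30.6 and 32.6, and 13.4 and 15.2 CPM in the same order. The 4 WT libraries were thus the highest of the 12 and the 4 ΔIDR1b libraries the lowest, and the 3 states did not overlap.

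In WT the log2 difference of DUSP5 from no ARID1A was 1.03 with the empty vector (SE 0.15, adjusted p = 1.41e-05) and 0.73 with EWS-FLI1 (SE 0.15, adjusted p = 9.12e-04). In ΔIDR1b its log2 difference from no ARID1A was -0.60 with the empty vector (SE 0.16, adjusted p = 0.00371) and -0.42 with EWS-FLI1 (SE 0.16, adjusted p = 0.0406). The direct comparison of ΔIDR1b with WT gave -1.63 with the empty vector (SE 0.16, adjusted p = 2.27e-09) and -1.15 with EWS-FLI1 (SE 0.16, adjusted p = 2.71e-06), a level 3.09 and 2.21 times lower. Both direct differences and both rises in WT were called under every alternative run (19 each). The fall in ΔIDR1b with the empty vector was lost on leaving out replicate 1 of the no-ARID1A, empty-vector group (0.0917, alternatives from 0.00102 to 0.0917). That with EWS-FLI1 was called in 9 of 19 alternatives (adjusted p between 0.025 and 0.253), and lost without either library of no ARID1A with EWS-FLI1 (0.084 without replicate 1 and 0.225 without replicate 2), of ΔIDR1b with EWS-FLI1 (0.253 and 0.0599), of ΔIDR1b with the empty vector (0.0532 and 0.0529) or of WT with the empty vector (0.0516 and 0.0565), and also with no filter (0.0809) and with DESeq2 (0.0634).

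DUSP6, the cytoplasmic ERK phosphatase (chromosome 12, 89347235 to 89352501, minus strand), was the least abundant phosphatase. It had 3 counts in no ARID1A with the empty vector (0.0743 and 0.15 CPM), 16 in WT (0.67 and 0.523 CPM) and 29 in ΔIDR1b (0.439 and 1.64 CPM). With EWS-FLI1 it had 19 counts in no ARID1A (0.597 and 1.04 CPM), 71 in WT (2.48 and 2.88 CPM) and 83 in ΔIDR1b (3.68 and 2.15 CPM). Both libraries of no ARID1A with the empty vector were below all others. The 4 libraries of WT or ΔIDR1b with EWS-FLI1 were above all others, without separating from each other.

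Relative to no ARID1A with the empty vector, the count ratio of DUSP6 was 5.33 in WT (95% counting interval 1.53 to 28.6), which was not called (adjusted p = 0.101), and 9.37 in ΔIDR1b (95% counting interval 2.90 to 48.1, adjusted p = 0.00507). Such intervals pool the 2 libraries of a group, so they take in counting error and leave out the spread between libraries. In ΔIDR1b with the empty vector the 2 libraries held 6 and 23 counts. Fragments copied by PCR are not separate molecules, so these intervals, and the limit for a gene without counts, may understate counting error too. With EWS-FLI1 the log2 difference from no ARID1A was 1.71 in WT (SE 0.59, adjusted p = 0.0422) and 1.83 in ΔIDR1b (SE 0.59, adjusted p = 0.0149). Of the DUSP6 exons 28.6% overlap ENSG00000274021 on the opposite strand, which had 18 counts in all, and the counting used no strand, so by default fragments in that stretch counted for neither gene. DUSP6 passed the filter through the 2 groups with ARID1A and EWS-FLI1, the same groups that are set against no ARID1A here. With no filter on low counts the adjusted p was 0.0311 in WT and 0.00949 in ΔIDR1b with EWS-FLI1, and 0.0015 in ΔIDR1b with the empty vector. These calls were not stable. The ΔIDR1b call with the empty vector was lost without replicate 1 of no ARID1A (adjusted p = 0.0557) and without replicate 2 of ΔIDR1b (0.228, range over the alternatives 0.00114 to 0.228). That of WT with EWS-FLI1 was lost without either library of no ARID1A with EWS-FLI1 (0.273 and 0.0898), either of WT with EWS-FLI1 (0.0579 and 0.112) or replicate 1 of ΔIDR1b with EWS-FLI1 (0.0554), and with upper-quartile scaling (0.0509) and DESeq2 (0.0922, range 0.0296 to 0.273). That of ΔIDR1b with EWS-FLI1 was lost without replicate 1 of no ARID1A (0.142) and replicate 1 of ΔIDR1b (0.175), both with EWS-FLI1, and with DESeq2 (0.0524, range 0.00371 to 0.175).

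DUSP4, a nuclear phosphatase that acts on ERK and on the stress kinases (chromosome 8, 29333064 to 29350684), was highest in WT with the empty vector. It stood at 15.5 and 15.2 CPM there, at 8.85 and 8.75 CPM in no ARID1A and at 12.9 and 8.08 CPM in ΔIDR1b. With EWS-FLI1 the values were 11.8 and 12.0 CPM in WT, 8.61 and 6.39 CPM in no ARID1A and 10.8 and 10.0 CPM in ΔIDR1b. The 2 ΔIDR1b libraries with the empty vector lay on either side of no ARID1A, so that group overlapped it. WT exceeded no ARID1A with a log2 difference of 0.80 (SE 0.21, adjusted p = 0.0116) for the empty vector and 0.66 (SE 0.22, adjusted p = 0.0348) with EWS-FLI1. The first call was lost without any single library of the groups compared (adjusted p 0.0729 and 0.0923 without replicates 1 and 2 of no ARID1A, 0.0845 and 0.0505 without those of WT, range over the alternatives 0.00175 to 0.0923). The second was lost without replicate 2 of no ARID1A (0.322) and without either WT library (0.0572 and 0.0679), with upper-quartile scaling (0.0556), with DESeq2 (0.0721) and in a fit of these 4 libraries alone (0.0775, range 0.0124 to 0.322). Against WT, ΔIDR1b gave -0.55 with the empty vector (SE 0.21, adjusted p = 0.0535), which was called in 6 of 19 alternatives (range 0.0134 to 0.556), among them without replicate 1 of ΔIDR1b (0.0134) and without either library of WT with EWS-FLI1 (0.0312 and 0.0314).

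Of the Sprouty family, SPRY4, an inhibitor of receptor signalling to ERK (chromosome 5, 142310427 to 142326455, minus strand), differed most from the knockout. Without ARID1A it had 7 counts over both empty-vector libraries (0.372 and 0.15 CPM) and 9 over both EWS-FLI1 libraries (0.426 and 0.346 CPM). In WT it reached 2.60 and 2.02 CPM with the empty vector and 3.46 and 4.70 CPM with EWS-FLI1. In ΔIDR1b it reached 3.36 and 2.79 CPM with the empty vector and 4.39 and 4.17 CPM with EWS-FLI1. The 4 libraries without ARID1A lay far below the other 8, and with EWS-FLI1 the WT libraries lay on either side of those of ΔIDR1b.

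SPRY4 was 8.58-fold higher in WT than in no ARID1A with the empty vector (3.10 in log2 units, SE 0.55, adjusted p = 2.29e-04) and 10.3-fold higher with EWS-FLI1 (3.37, SE 0.51, adjusted p = 1.09e-05). In ΔIDR1b it was 11.4-fold (3.51, SE 0.54, adjusted p = 4.15e-06) and 10.8-fold higher (3.44, SE 0.50, adjusted p = 1.81e-06). SPRY4 passed the filter through the groups with ARID1A, and with no filter on low counts its adjusted p was 1.40e-05 and 3.85e-08 in WT and 2.51e-08 and 4.97e-09 in ΔIDR1b, in the same order of vectors. Between ΔIDR1b and WT the log2 difference was 0.41 (SE 0.39, adjusted p = 0.479) and 0.07 (SE 0.36, adjusted p = 0.918), neither of which was called.

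SPRED1, which brings the RAS inhibitor neurofibromin to the membrane (chromosome 15, 38252836 to 38357249, plus strand), rose in a stepwise order from no ARID1A to WT to ΔIDR1b. It stood at 5.72 and 7.10 CPM in no ARID1A, 10.3 and 11.4 CPM in WT and 15.2 and 18.9 CPM in ΔIDR1b with the empty vector. With EWS-FLI1 it stood at 4.86 and 5.96, 9.63 and 9.93, and 17.1 and 16.3 CPM. The 3 states did not overlap with either vector.

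The log2 difference between WT and no ARID1A in SPRED1 was 0.76 (SE 0.21, adjusted p = 0.0157) with the empty vector and 0.85 (SE 0.22, adjusted p = 0.00574) with EWS-FLI1. For ΔIDR1b against no ARID1A it was 1.41 (SE 0.21, adjusted p = 1.85e-06) and 1.63 (SE 0.21, adjusted p = 2.52e-07), called under all 19 alternatives each. For ΔIDR1b against WT it was 0.65 (SE 0.19, adjusted p = 0.0127) and 0.77 (SE 0.20, adjusted p = 0.00544), the latter called under all 19. With the empty vector, the WT call was lost without replicate 1 of no ARID1A (adjusted p = 0.175) and without either WT library (0.0621 and 0.0976, range over the alternatives 0.00479 to 0.175). The call between ΔIDR1b and WT was lost without replicate 1 of WT (0.118) and without replicate 2 of ΔIDR1b (0.199, range 0.00529 to 0.199). With EWS-FLI1, the WT call was lost without replicate 1 of no ARID1A (0.109, range 0.00157 to 0.109).

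SPRY2, the most abundant Sprouty-family gene among the members (chromosome 13, 80335976 to 80341126, minus strand), differed little. Its lowest library was in ΔIDR1b with the empty vector (18.3 and 21.2 CPM) and its highest in WT with the empty vector (26.3 and 27.8 CPM). No ARID1A stood at 22.0 and 20.3 CPM with the empty vector and 22.3 and 23.9 CPM with EWS-FLI1, and with EWS-FLI1 WT stood at 27.0 and 23.7 CPM and ΔIDR1b at 22.0 and 22.7 CPM. Most neighbouring groups thus overlapped. The difference of ΔIDR1b from WT with the empty vector, -0.45 on the log2 scale (SE 0.15, adjusted p = 0.0268), was lost with upper-quartile factors (0.0575), without either WT library (0.0788 and 0.138) and without either ΔIDR1b library (0.247 and 0.0513), where the alternatives spanned 0.0124 to 0.247.

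Of the PEA3 genes, ETV1 and ETV5 were called higher with both forms of ARID1A and either vector, and ETV4 with both forms in the presence of EWS-FLI1 (its interactions with vector were not called). ETV5 (chromosome 3, 186046314 to 186110318, minus strand) stood at 1.78 and 1.27 CPM in no ARID1A, 5.36 and 5.15 CPM in WT and 5.04 and 6.79 CPM in ΔIDR1b with the empty vector. With EWS-FLI1 it stood at 1.11 and 2.16, 7.83 and 5.99, and 11.3 and 8.20 CPM. All 8 libraries with ARID1A were above all 4 without it, and with the empty vector the 2 forms of ARID1A overlapped.

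ETV5 was 3.42-fold higher in WT (1.78 in log2 units, SE 0.34, adjusted p = 5.48e-04) and 3.86-fold higher in ΔIDR1b (1.95, SE 0.34, adjusted p = 2.64e-05) than in no ARID1A with the empty vector. With EWS-FLI1 the folds were 4.22 (2.08, SE 0.34, adjusted p = 3.49e-05) and 5.95 (2.57, SE 0.33, adjusted p = 1.77e-07). These 4 calls held under all 19 alternatives each. ΔIDR1b and WT were not called apart with the empty vector (0.17, SE 0.29, adjusted p = 0.712) or with EWS-FLI1 (0.50, SE 0.27, adjusted p = 0.211).

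ETV1 (chromosome 7, 13891229 to 13991425, minus strand) had 13 counts over both libraries of no ARID1A with either vector, at 0.595 and 0.374 CPM with the empty vector and 0.682 and 0.432 CPM with EWS-FLI1. In WT it stood at 1.79 and 2.02 CPM with the empty vector and 2.03 and 2.35 CPM with EWS-FLI1. In ΔIDR1b it stood at 1.83 and 1.07 CPM with the empty vector and 3.96 and 2.92 CPM with EWS-FLI1. As for ETV5, all 8 libraries with ARID1A exceeded all 4 without it. With EWS-FLI1 the log2 difference from no ARID1A was 1.96 in WT (SE 0.56, adjusted p = 0.0121) and 2.61 in ΔIDR1b (SE 0.54, adjusted p = 2.62e-04), the latter called under all 19 alternatives and the former lost without replicate 2 of no ARID1A (0.129, range 0.0085 to 0.129). With no filter on low counts the adjusted p of ETV1 was 0.00958 and 3.97e-05 here, and 0.0162 and 0.0483 with the empty vector.

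With the empty vector the log2 difference of ETV1 from no ARID1A was 1.95 in WT (SE 0.56, adjusted p = 0.0196) and 1.56 in ΔIDR1b (SE 0.57, adjusted p = 0.0341). The WT call was lost without any single library of the groups compared (adjusted p 0.06 and 0.177 without replicates 1 and 2 of no ARID1A, 0.0698 and 0.0803 without those of WT, range over the alternatives 0.0118 to 0.177). The ΔIDR1b call was lost with DESeq2 (0.079), in a fit of these 4 libraries alone (0.0516), without either library of no ARID1A (0.064 and 0.202) and without replicate 1 of ΔIDR1b (0.266), where the alternatives spanned 0.0306 to 0.266.

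ETV4 (chromosome 17, 43527844 to 43579620, minus strand), the most abundant PEA3 gene per kilobase, differed least of the 3. Of its exons 1.93% overlap DHX8 on the opposite strand, and of those of ETV5 2.84% overlap DGKG. It stood at 9.37 and 7.33 CPM in no ARID1A, 12.4 and 10.8 CPM in WT and 11.0 and 11.8 CPM in ΔIDR1b with the empty vector, where neither form was called (adjusted p = 0.139 and 0.0966). With EWS-FLI1 it stood at 8.01 and 7.52, 10.3 and 14.5, and 14.4 and 15.4 CPM. All 8 libraries with ARID1A again exceeded the 4 without it. With EWS-FLI1 the log2 difference was 0.94 in ΔIDR1b (SE 0.21, adjusted p = 6.59e-04), called under all 19 alternatives. In WT it was 0.67 (SE 0.21, adjusted p = 0.0249), which was lost in a fit of these 4 libraries alone (0.0794), with DESeq2 (0.0525), without either library of no ARID1A (0.102 and 0.155) and without replicate 2 of WT (0.276, range 0.00419 to 0.276).

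PHLDA1, a small protein with a pleckstrin-homology-like domain that is induced by ERK signalling (chromosome 12, 76025447 to 76031776, minus strand), followed a different order. Of its exons 9.35% overlap the antisense gene PHLDA1-AS1, which had 0 counts in all 12 libraries. It was lowest in ΔIDR1b with the empty vector (2.56 and 3.15 CPM), followed by no ARID1A (4.46 and 3.96 CPM) and WT (5.36 and 4.86 CPM) with the empty vector. With EWS-FLI1 it stood at 5.37 and 5.44 CPM in no ARID1A, 5.73 and 5.70 CPM in ΔIDR1b and 8.20 and 7.66 CPM in WT. In each state both EWS-FLI1 libraries were above both empty-vector libraries. With the empty vector the log2 difference of ΔIDR1b from WT was -0.84 (SE 0.28, adjusted p = 0.0268), and this call was lost with no filter (0.063), with DESeq2 (0.0604), without either WT library (0.137 and 0.0603) and without either ΔIDR1b library (0.192 and 0.063), where the alternatives spanned 0.0227 to 0.192.

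Sequences 5′ of the start sites were taken from RefSeq (GRCh38.p14, 250 bases before each annotated start), where 6 of the 10 genes had 13 entries. DUSP4, DUSP5, ETV4 and ETV5 had none. Windows free of annotated exons are shown for ETV1 and SPRED1, which were higher with ARID1A, and for PHLDA1, which was higher with EWS-FLI1. Capitals mark GGAA on either strand (GGAA or TTCC), the core bound by ETS proteins, and the octamer TGAATGGA bound by CIC.
ETV1, chr7:13990703-13990952, minus strand: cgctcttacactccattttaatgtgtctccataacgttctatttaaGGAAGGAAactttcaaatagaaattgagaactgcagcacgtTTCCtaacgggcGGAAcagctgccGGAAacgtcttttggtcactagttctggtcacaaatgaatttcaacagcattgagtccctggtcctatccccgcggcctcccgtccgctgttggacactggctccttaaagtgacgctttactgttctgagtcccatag
ETV1, most upstream start, chr7:13991426-13991675, minus strand: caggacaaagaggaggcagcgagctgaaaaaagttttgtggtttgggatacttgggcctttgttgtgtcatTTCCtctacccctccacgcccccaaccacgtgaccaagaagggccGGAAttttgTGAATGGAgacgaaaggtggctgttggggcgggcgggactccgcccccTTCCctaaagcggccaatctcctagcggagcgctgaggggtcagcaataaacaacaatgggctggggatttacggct
SPRED1, chr15:38252586-38252835, plus strand: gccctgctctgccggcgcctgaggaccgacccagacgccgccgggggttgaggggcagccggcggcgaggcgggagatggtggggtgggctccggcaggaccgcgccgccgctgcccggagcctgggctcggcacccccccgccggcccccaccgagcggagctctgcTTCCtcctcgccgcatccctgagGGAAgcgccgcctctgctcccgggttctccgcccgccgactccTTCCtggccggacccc
PHLDA1, chr12:76031777-76032026, minus strand: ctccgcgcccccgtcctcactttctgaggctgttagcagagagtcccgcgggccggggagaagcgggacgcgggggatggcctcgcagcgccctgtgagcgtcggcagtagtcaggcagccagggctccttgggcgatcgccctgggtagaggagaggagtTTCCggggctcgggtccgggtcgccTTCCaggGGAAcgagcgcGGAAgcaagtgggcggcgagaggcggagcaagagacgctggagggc

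These windows held 5 GGAA cores (ETV1, first window), 3 (ETV1, most upstream start), 3 (SPRED1) and 4 (PHLDA1). A core was present in 92.7% of all 35116 promoter windows of that length, with a median of 3, so its presence does not set these genes apart. The first ETV1 window also held GGAAGGAA, which overlaps 2 of those cores and occurred on either strand in 3.06% of all windows. The octamer in either of its forms TGAATGAA or TGAATGGA, on either strand, occurred in 2.19% of all windows and among the 13 entries in the most upstream ETV1 window alone. The AP-1 motif TGANTCA, whose reverse complement has the same form, occurred in 6.57% of all windows and in 0 of the 13 entries. The DUSP6 window held 6 GGAA cores and lies within an exon of ENSG00000274021. These matches describe the letters of the windows and no binding was measured.

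The next comparisons asked what EWS-FLI1 changed in each ARID1A state. In the single states 0 of the 10 members were called by edgeR or by DESeq2, where 0.0442% (no ARID1A), 0.221% (WT) and 0.172% (ΔIDR1b) of all genes were called. At an unadjusted p under 0.05 the numbers of members were 1, 4 and 4, where those of all 20377 genes were 643, 1331 and 1110. Averaged over the 3 states 0.466% of all genes were called, DUSP6 and PHLDA1 among them. Nothing is read from these counts, since values of these contrasts may have guided the list and DUSP6 was tested because of its level with EWS-FLI1. FLI1 transcripts were 2.03 times as abundant in WT as in no ARID1A and 1.88 times as abundant as in ΔIDR1b among the EWS-FLI1 libraries, and their part in differences between the states was not tested.

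DUSP6 had the largest difference with EWS-FLI1. In no ARID1A its count ratio to the empty vector was 7.29 (95% counting interval 2.15 to 38.5). In WT it was 4.44-fold higher with EWS-FLI1 (log2 fold change 2.15, SE 0.61) and in ΔIDR1b 2.78-fold (1.47, SE 0.56). In each state both EWS-FLI1 libraries were above both empty-vector libraries, and the averaged log2 fold change was 2.13 (SE 0.41). For PHLDA1 the folds were 1.28 in no ARID1A (0.36, SE 0.27), 1.55 in WT (0.63, SE 0.26) and 2.00 in ΔIDR1b (1.00, SE 0.28), averaging 0.66 on the log2 scale (SE 0.16). PHLDA1 is known as a gene held down by EWS-FLI1 in Ewing sarcoma cells, and here its level was higher with the fusion in all 3 states. That rise was known when the list was drawn up, and it was called in no single state. The averaged call held in 5 of 18 alternatives, over which the log2 fold change ran from 0.62 to 0.72. It was lost with no filter, with DESeq2 and with the replicate block within vector. Leaving out any single library other than those of WT with EWS-FLI1 also lost it.

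The other 8 genes had averaged log2 fold changes between -0.20 (DUSP4, SE 0.13) and 0.61 (SPRY4, SE 0.31). ETV1 stood at 0.20 in no ARID1A (SE 0.67), 0.20 in WT (SE 0.47) and 1.24 in ΔIDR1b (SE 0.46), and only in ΔIDR1b were both EWS-FLI1 libraries above both empty-vector libraries by more than the spread within either pair. ETV5 stood at 0.09 (SE 0.40), 0.39 (SE 0.29) and 0.72 (SE 0.28) in the same order. SPRY4 stood at 0.55 (SE 0.74), 0.82 (SE 0.38) and 0.48 (SE 0.37). For DUSP5 the values were -0.10 (SE 0.16), -0.39 (SE 0.15) and 0.09 (SE 0.16), with both WT libraries lower with EWS-FLI1 than with the empty vector. DUSP4, SPRY2, SPRED1 and ETV4 lay between -0.37 and 0.38 in every state.

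**Figure D3:**
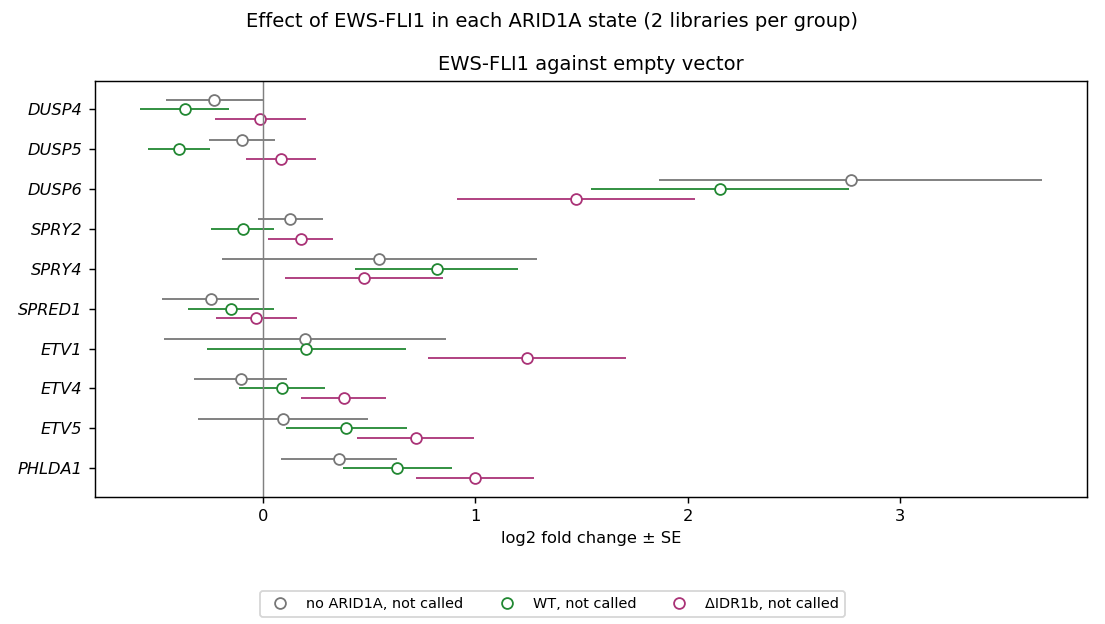
Log2 fold change ± SE of EWS-FLI1 against empty vector for each gene in no ARID1A (grey), WT (green) and ΔIDR1b (purple), 2 libraries per group. All points are open because no member was called in a single state; DUSP6 lies farthest to the right and the 3 states overlap within their errors for most genes.

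Whether the effect of EWS-FLI1 on these genes differed between ARID1A states was tested with interaction terms. By edgeR 0 members were called in each of the 3 interactions, and by DESeq2 0 as well. Over all genes 0.0245% were called between WT and no ARID1A, 0.0196% between ΔIDR1b and no ARID1A and 0% between ΔIDR1b and WT. At an unadjusted p under 0.05 there were 0, 0 and 1 members, the last being DUSP5 (0.48, SE 0.22, adjusted p = 1), where those of all genes were 884, 702 and 741. The largest interaction among the members was that of DUSP6 between ΔIDR1b and no ARID1A (-1.29, SE 1.08, adjusted p = 1), which rests on the 3 counts of the latter. For ETV1 the interaction of ΔIDR1b with WT was 1.04 (SE 0.66, adjusted p = 1), so a difference in its response to EWS-FLI1 was not detectable at this depth.

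The members' patterns over the 12 libraries were compared as a description, since libraries of a group share their treatment. Pearson's r of log2 CPM over the 45 pairs ran from -0.30 to 0.95 with a median of 0.52, and 4 pairs were negative. SPRY4, ETV1, ETV4 and ETV5 were alike (r from 0.87 to 0.95), and SPRED1 was close to them (0.75 to 0.87). DUSP5 was nearest to SPRY2 (0.83) and had an r of at most 0.09 with any of those 5. PHLDA1 was nearest to SPRY2 (0.71) among the members.

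**Figure D4:**
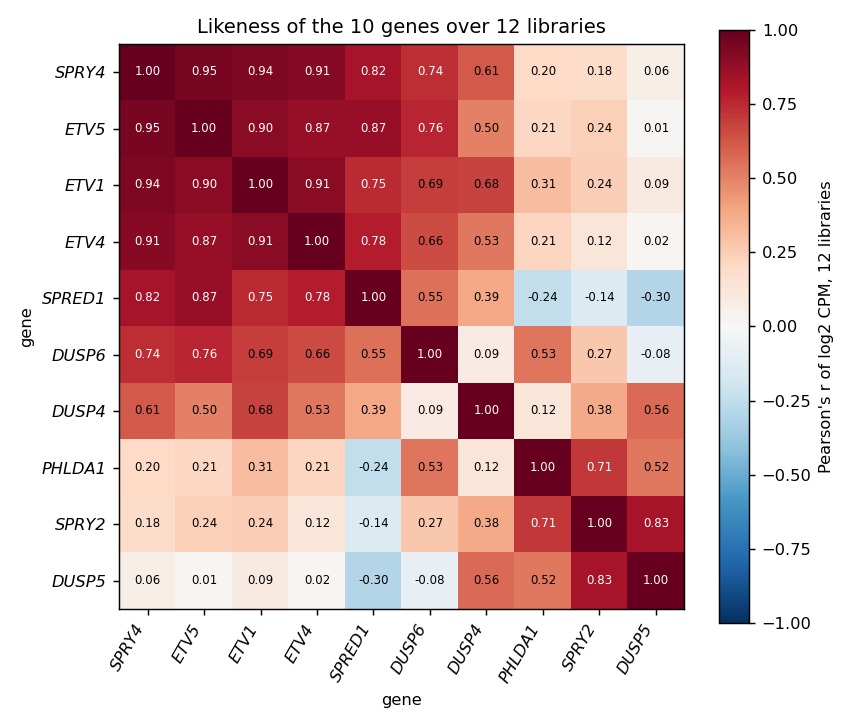
Pearson's r of log2 CPM over 12 libraries for each pair of the 10 genes, from -1 (blue) to 1 (red). SPRY4, the 3 ETV genes and SPRED1 form a block of high values, and DUSP5, SPRY2 and PHLDA1 lie apart from it.

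Among 15437 other genes with a symbol and a mean of at least 1 CPM, the pattern most like that of PHLDA1 was that of PTGS2 (r = 0.97), the cyclooxygenase-2 gene. DUSP6 was most like THBD (0.94), MAP3K1 (0.93) and FBXO32 (0.93), and SPRY4 most like SNN, OGFOD1 (0.98 each) and B4GALT5 (0.98). ETV5 was most like ARHGAP5 (0.98), SPRED1 most like GABRQ (0.98), ETV1 most like SLC39A14 (0.96), ETV4 most like WDTC1 (0.96), DUSP5 most like HERPUD1 (0.97), DUSP4 most like ARPC5L (0.93) and SPRY2 most like LCMT1 (0.93). The best-placed member in another member's ranking was SPRY4, which was ninth for ETV1 (0.94), so many genes outside the list followed the same differences between states.

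The rest of the pathway was followed with lists of 90 genes, of which 81 were tested. These lists too were chosen with earlier results of these data known, so their shares of calls are a description. Between WT and no ARID1A with the empty vector 16 were higher and 4 lower (24.7%, against 11.7% of all genes). By role 2 of 10 ligands, 1 of 12 receptors, 4 of 13 adaptors and RAS genes, 2 of 15 other feedback genes and 7 of 14 other output genes were higher, and 4 output genes were lower. The 11 RAF, MEK and ERK pathway kinases (median log2 fold change 0.11) and 6 repressors of ETS-site genes (0.17) held no call by edgeR. The ligand genes PDGFA (1.03, SE 0.27) and FGF2 (0.61, SE 0.16) and the adaptor FRS2 (0.58, SE 0.15), which couples fibroblast growth factor receptors to RAS, rose. So did the feedback genes ERRFI1 (1.19, SE 0.11), an inhibitor of the EGF receptor, and SPRED2 (0.66, SE 0.15), and the early-response factor EGR3 (1.38, SE 0.30). FOS fell by 1.44 (SE 0.11), from 191 and 181 CPM to 72.1 and 64.5 CPM, so ERK output genes moved in both directions.

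Between ΔIDR1b and WT with the empty vector 12 of the 81 were higher and 13 lower (30.9%, against 24.5% of all genes). ERRFI1 fell by 1.54 (SE 0.11, adjusted p = 1.10e-11), from 231 and 201 CPM in WT to 70.8 and 77.8 CPM in ΔIDR1b, with 93.4 and 95.6 CPM in no ARID1A. It thus had, like DUSP5, its highest level in WT. FOS fell by 1.92 (SE 0.12) and FOSB by 1.48 (SE 0.27), as did the ligand gene HBEGF (-0.70, SE 0.15) and HRAS (-0.60, SE 0.12). EGFR (0.53, SE 0.13), MET (0.48, SE 0.13), SOS1 (0.48, SE 0.11), RPS6KA2 (0.56, SE 0.15), SPRED3 (1.37, SE 0.38), CIC (0.50, SE 0.13) and its partner ATXN1L (0.33, SE 0.12) rose. CIC was at 72.6 and 72.9 CPM in no ARID1A, 88.0 and 79.5 CPM in WT and 121 and 116 CPM in ΔIDR1b.

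With EWS-FLI1, averaged over the states, 5 of the 81 were higher and 2 lower (8.64%, against 0.466% of all genes). Nothing is read from this share, since values of this contrast may have guided the lists. IER2 (0.80, SE 0.09, adjusted p = 7.31e-08) and JUNB (0.65, SE 0.07, adjusted p = 3.36e-07), both early-response genes, had the largest differences among the called output genes, of which 4 of 14 were higher and 1 lower. Of the other feedback genes DUSP1 was lower (-0.25, SE 0.06, adjusted p = 0.0291), and of the repressors ETV3 was higher (0.31, SE 0.07, adjusted p = 0.0159).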

How the data were processed

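PolyA RNA libraries of HEK-293T cells with ARID1A knocked out were compared in 6 groups of 2. Per the file headers, the authors counted read pairs with featureCounts 2.0.1 on exons of GENCODE release 41 (GRCh38, patch 13), joined by gene name, with both ends aligned and no strand option. Fragments that overlapped several genes were not assigned by default. The deposited values are unnormalized counts per gene. Per the submitters' processing notes STAR and edgeR were also used, and their versions are not given in the sources used here.

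Genes were kept by filterByExpr (minimum count 10, minimum total 15), which left 20377 genes with 99.79 to 99.87% of each library's counts. All 12 libraries entered a quasi-likelihood model, with a mean for each group, in edgeR 4.0.16 (R 4.3.3) with TMM scaling, and 13 contrasts were tested. DESeq2 1.42.0 was an alternative, and the others were RLE and upper-quartile scaling, no filter, only the libraries compared, each library left out and 2 kinds of replicate block. SE is the log2 fold change divided by the square root of F. The procedure was tested on simulated data. The members, lists and rule for naming genes were chosen with earlier results of these data known. The rule named all members, per pathway list at most the 2 called genes with the largest change in each of 3 contrasts, and for each member the 3 genes most like it, of which the text gives the first or all 3. Some genes that the rule or the marker lists hold are not reported here.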

Additional observations from a re-analysis of the deposited data

How the results depend on the processing

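Each count of called members was recomputed under up to 19 alternatives. Leaving out single libraries gave 3 to 6 members for WT against no ARID1A with the empty vector (6 in the reported fit), 3 to 6 for ΔIDR1b against no ARID1A (6), 1 to 5 for ΔIDR1b against WT (4), and with EWS-FLI1 4 to 8 (8), 5 to 7 (7) and 2 in each case (2). For EWS-FLI1 averaged over the states it gave 1 to 2 members (2). Where a group was left with 1 library, that library was assumed to vary like the others. The average count was 1 with no filter, with DESeq2 and with the replicate block within vector, PHLDA1 being lost (adjusted p = 0.0534, 0.108 and 0.104). PHLDA1 was likewise lost from the average without any single library other than those of WT with EWS-FLI1. With the empty vector DESeq2 called 5 members for WT against no ARID1A, in place of 6. It called 5 for ΔIDR1b against no ARID1A, in place of 6, and 3 for ΔIDR1b against WT, in place of 4. With EWS-FLI1 DESeq2 called 5, 5 and 2 members in the same order, in place of 8, 7 and 2. It gave no adjusted p for 2 members in WT against no ARID1A with the empty vector. Fitted without the other groups, DUSP6 did not pass the filter in the 3 comparisons with the empty vector, nor did DUSP6, SPRY4 and ETV1 for EWS-FLI1 in no ARID1A. No called member changed sign under any alternative run.

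The labels do not say that repeat numbers mark a shared batch, and they were not taken as pairs. The difference between repeats correlated between groups at 0.0809 to 0.343 within a vector (6 pairs). Across vectors the correlation was -0.166 to -0.00637 (9 pairs), so it was positive in all 6 and negative in all 9. The reported fit holds no term for a difference between repeats shared within a vector, and the replicate block within vector was run as an alternative. With the repeat number as a replicate block over all libraries DUSP4 was called between ΔIDR1b and WT with the empty vector (adjusted p = 0.0423, and 0.021 with the replicate block within vector). With the replicate block within vector 1 member, DUSP6, was called for EWS-FLI1 in WT (adjusted p = 0.0485) where 0 were called without it.

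Over all genes the counts called ranged, across alternatives, from 5 to 16, 24 to 260 and 23 to 177 for EWS-FLI1 in no ARID1A, WT and ΔIDR1b, and from 65 to 532 for the average. With the empty vector they ranged from 802 to 3606 for WT against no ARID1A, 4484 to 8063 for ΔIDR1b against no ARID1A and 2754 to 6138 for ΔIDR1b against WT, and with EWS-FLI1 from 1828 to 4849, 5038 to 8286 and 1622 to 5049. The interactions ranged from 4 to 48, 3 to 6 and 0 to 26. Depth limits DUSP6, SPRY4 and ETV1 in no ARID1A, where both libraries together held 3 to 19 counts.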
